A study of Mus musculus with 12 samples.

Results

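The mesenchymal cells of mammary tumor 1 (MT1) were studied here against the epithelial cells of the same tumor. They were 445 of 7690 MT1 cells, out of 21157 cells in the series, and were chosen on measured counts: at least 5 unique molecular identifiers (UMIs, each 1 captured RNA molecule) of Vim, at least 8 of Cav1 and at least 5 of Capza2, 0 UMIs of Pecam1, Cdh5 and Ptprc, and at most 2 UMIs over Dcn, Lum and Dpt together. The epithelial side was the 5009 MT1 cells with at least 2 UMIs of Epcam and at most 1 of Cav1. The series is Drop-seq, a droplet method that reads the 3′ ends of RNA from single cells, on 12 libraries from 2 mice of mixed C57BL/6 and 129/Sv strain that carry MMTV-Cre and Brca1flox/flox, so that Cre, driven by a mammary tumor virus promoter, removes Brca1 in the mammary epithelium. Glands of the mice were the groups MG1 and MG2 and their tumors MT1 and MT2, with MG1 and MT1 from the same mouse; every group shares the genotype, no age is given in the labels, and no sample is from a mouse with intact Brca1. Before loading, blood and endothelial cells had been depleted to enrich epithelial cells. The 5 MT1 libraries (replicates 1 to 5) come from 1 tumor of 1 mouse, so every p-value below measures the spread between libraries of that tumor and not between tumors.

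Epithelial cells are held in sheets by E-cadherin, tight junctions and desmosomes and carry a keratin skeleton. In an epithelial-to-mesenchymal transition, transcription factors of the Snail, Twist and Zeb families repress those junction genes, keratin filaments give way to vimentin, and the cells gain matrix, integrin and actin genes that go with movement. Mammary carcinomas with loss of Brca1 are often poorly differentiated, and spindle-shaped or mesenchymal areas are known in them.

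The genes of the gate and the 6 working markers show what the rule selected, and their levels are a description with no test. Levels are counts per 1000000 UMIs (CPM) of the cells of 1 side summed in 1 library, scaled by the trimmed mean of M-values (TMM). Vim, the intermediate filament of mesenchymal cells (chr2:13573927-13582826, GRCm38), stood at 8655, 8072, 8488, 8770.0 and 10200.0 CPM in the mesenchymal cells of replicates 1 to 5, and at 82.1, 141, 127, 118 and 144 in the epithelial cells. Cav1, the main coat protein of caveolae (chr6:17306335-17341452), stood at 13010.0, 14130.0, 12170.0, 9635 and 16640.0 CPM against 35.6, 49.2, 55.2, 44.0 and 60.3. Capza2, an actin-capping subunit (chr6:17636234-17666972), stood at 11860.0 ± 730.3 CPM (SD, n = 5 libraries) and 12900.0 ± 771 and was lower in the mesenchymal cells of 5 of 5 libraries, by a log2 fold change of -0.12 ± 0.06. Epcam, the epithelial adhesion molecule, was at 224 ± 104 and 2571 ± 138 CPM. All 5 libraries of one side lay above all 5 of the other for Vim, Cav1 and Epcam, and the ranges of the sides overlapped for Capza2.

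The remaining working markers were no part of the rule, but were picked with earlier results of these data known. S100a4, a calcium-binding protein of motile cells (chr3:90603771-90606045), had 196, 441, 141, 239 and 165 CPM in the mesenchymal cells and 7.92, 11.5, 9.46, 7.43 and 9.96 in the epithelial cells. Dpysl3, a collapsin response mediator of growth cones, had 188, 250, 114, 108 and 149 CPM against 5.94, 8.89, 10.2, 6.24 and 6.17. For both genes the lowest mesenchymal library lay above the highest epithelial one. The BMP ligand Bmp2 (chr2:133552159-133562885) had 54.98, 44.1, 85.2, 97.6 and 78.5 CPM against 18.8, 5.75, 12.7, 9.81 and 10.9, and Gap43, a growth cone protein (chr16:42248442-42340651), had 23.6, 14.7, 41.4, 33.7 and 45.5 against 0, 1.05, 0.693, 0.297 and 0. Gap43 rested on 42 UMIs in the mesenchymal cells and 6 in the epithelial cells, the thinnest of the 6.

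**Figure D1:**
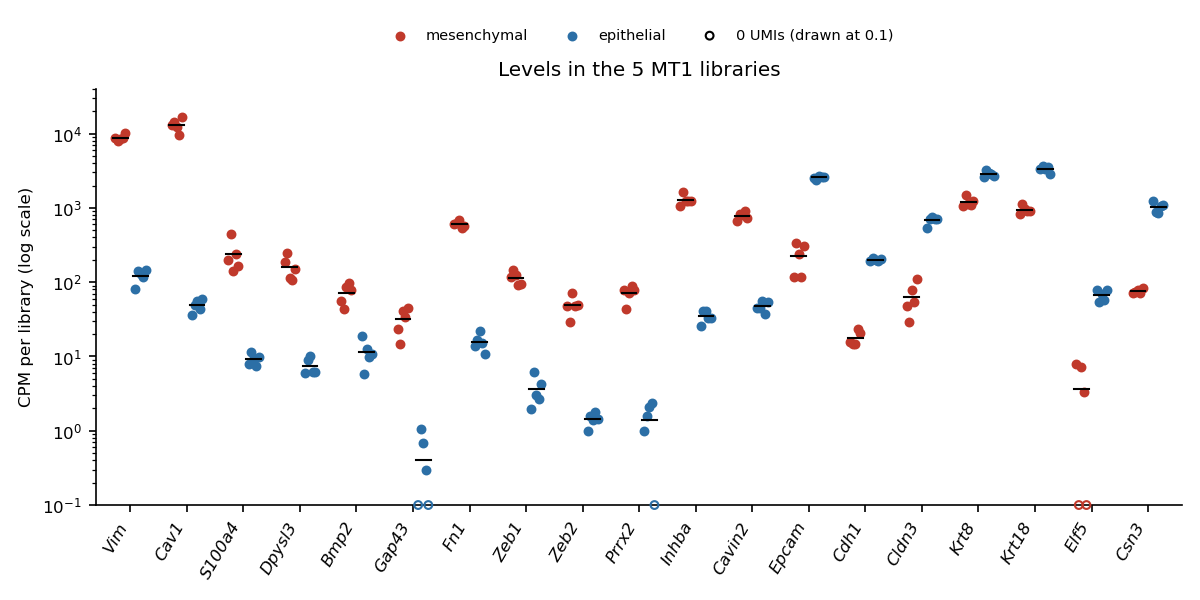
Levels in CPM (log axis) of gate genes, working markers and genes named below in the mesenchymal cells (red) and epithelial cells (blue) of each of the 5 MT1 libraries; each point is 1 library, the bar is the mean, and open points are libraries with 0 UMIs. Vim ran from 8072 to 10200.0 CPM in the mesenchymal cells and from 82.1 to 144 in the epithelial cells, and Csn3 shows the opposite order.

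Members were found in every MT1 library, 63, 17, 139, 116 and 110 cells, or 5.65% ± 2.10 of its cells (SD, n = 5; lowest 2.32% in replicate 2, exact 95% interval 1.35% to 3.68%; highest 7.67% in replicate 1, 5.95% to 9.71%; the intervals cover counting error only). The cap on Dcn, Lum and Dpt sets this share: without it 1117 cells met the rule, 14.2% ± 3.88 of the cells of a library. The same rule took 1 of 818 MG1 cells, 5 of 2335 MG2 cells and 35 of 10314 MT2 cells. It asks for 5 UMIs of Capza2, which stood at only 459 CPM in MT2 and 360 CPM in the MG1 epithelial cells. The MT2 cells it took had a median of 11500, 9739.5 and 12468.5 UMIs by library, against 4631.5, 2329 and 3900 in all MT2 cells. These counts therefore do not give the share of mesenchymal cells in the other groups. The median depth of the members was 2206 UMIs a cell against 2185 in the epithelial cells; by library it was 1795, 4047, 2401, 2408.5 and 1990.0 against 1822, 2940.5, 2233, 2132 and 2103, so that the members of replicate 2 were deeper than its epithelial cells. Their summed UMIs per library ran from 68822 (replicate 2) to 427002 (replicate 3). The MT1 libraries held 1683944 to 6734224 UMIs, pairs of them shared 0 to 2 cell barcodes, and 1 shared barcode belonged to a member. The mitochondrial share was lower in the mesenchymal cells in each library, 3.45% to 6.64% against 5.79% to 9.64%, as was the share of the 293 genes whose symbols start with Rpl or Rps, mostly ribosomal protein genes and their copies, 8.35% to 9.62% against 10.2% to 11.6%, and the part of either in the results was not tested.

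The members were not uniform. Epcam was at 0 UMIs in 330 of them, at 1 in 67 and at 2 or more in 48, with a highest count of 24; the 48 had a median of 3101 UMIs, against 2086 in the 330. Pooled Vim was 9041 CPM in the members without an Epcam UMI and 6549 CPM in those with 2 or more, and pooled Krt8 was 983 and 1843 CPM. Whether the 48 cells are doublets of both kinds was not tested, and without any member that had an Epcam UMI the comparison below made 3186 calls, 3014 of them shared with the 3595 of all members and all with the same sign. The cap on Dcn, Lum and Dpt divided a continuum: 107 members had exactly 2 such UMIs, and 109 cells that met all other conditions had 3. On the 2 sides of that threshold Gap43 stood at 64.8 and 73.5 CPM, Dpysl3 at 256 and 230 CPM and Bmp2 at 92.1 and 141 CPM, while the 251 members with 0 such UMIs had 9.01, 63.1 and 63.1 CPM. At the threshold of Cav1, the 12 members with 8 UMIs had 246 CPM of S100a4 and the 13 cells with 7 UMIs had 103 CPM. Pools of so few cells hold few UMIs of S100a4, so no step is read from these values.

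The question of the main comparison was how the rest of the transcriptome differs between mesenchymal and epithelial cells of 1 tumor. Most tested genes of the cytoskeleton and adhesion list were higher in the mesenchymal cells, most tested genes of the junction, keratin and milk lists were lower, and the matrix list was mixed; the counts stand with each list below. With the library as a block in edgeR's quasi-likelihood test and Benjamini-Hochberg adjustment at 0.05, 3595 of 7201 tested genes passed (49.9%), 1814 higher (25.2%) and 1781 lower (24.7%) in the mesenchymal cells, so a share of passing members in a list is read against those backgrounds. A gene low on one side passed the low-count filter through the other side, so counts within lists are descriptions.

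Among the genes with the largest differences, higher in the mesenchymal cells, were Lce1g (late cornified envelope 1G), the proliferins Prl2c2 and Prl2c3, the drug efflux pump Abcb1b, the collagen-processing enhancer Pcolce2, urate oxidase Uox, the metalloreductase Steap1, extracellular superoxide dismutase Sod3, prostaglandin synthase Ptgs2, the collagen chain Col5a3 and T-cadherin, Cdh13. Lce1g had 424, 324, 416, 525 and 343 CPM in replicates 1 to 5 against 0.989, 0.523, 1.39, 2.97 and 2.85 in the epithelial cells, a log2 fold change of 7.72 ± 0.19 (SE; edgeR, adjusted p = 2.69e-62). Ptgs2 had 503, 544, 409, 411 and 657 CPM against 1.98, 9.41, 8.31, 3.86 and 9.02, a log2 fold change of 6.12 ± 0.15 (edgeR, adjusted p = 2.33e-61). Each mesenchymal library lay above each epithelial one for both genes, as it did for 30.3% of all tested genes in one direction or the other. Prl2c3 had 1045, 250, 774, 1094 and 508 CPM against 18.8, 7.32, 4.85, 3.86 and 10.4; Prl2c2 and Prl2c3 are close paralogs, and the division of reads between them is uncertain. Klra4, of a family of near-identical receptor genes, led the list with 82 UMIs against 2, a ratio of pooled levels of 459 (95% counting interval 123 to 3850).

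The genes with the largest differences on the other side were Ptn, the growth factor pleiotrophin, the cartilage-type collagens Col9a1 and Col9a3, the fatty acid carrier Fabp4, the alveolar transcription factor Elf5, embigin (Emb), the chemokine Ccl20, Krt79, the clathrin adaptor Ap1m2, Scrg1, kindlin-1 (Fermt1) and kappa-casein, Csn3. Ptn had 0, 0, 7.30, 16.8 and 12.4 CPM in the mesenchymal cells and 104, 438, 255, 300.2 and 147 in the epithelial cells, a log2 fold change of -4.62 ± 0.24 (edgeR, adjusted p = 2.93e-33). Csn3 had 70.7, 73.5, 77.9, 70.7 and 82.7 CPM against 1252, 877, 848, 1075 and 1110.0, a log2 fold change of -3.73 ± 0.12 (edgeR, adjusted p = 2.97e-51). The mesenchymal Csn3 levels rest on few UMIs per library, so their range is not compared with the epithelial spread. All 24 leading genes differed in the same direction in 5 of 5 libraries, which the rule for naming them required.

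**Figure D2:**
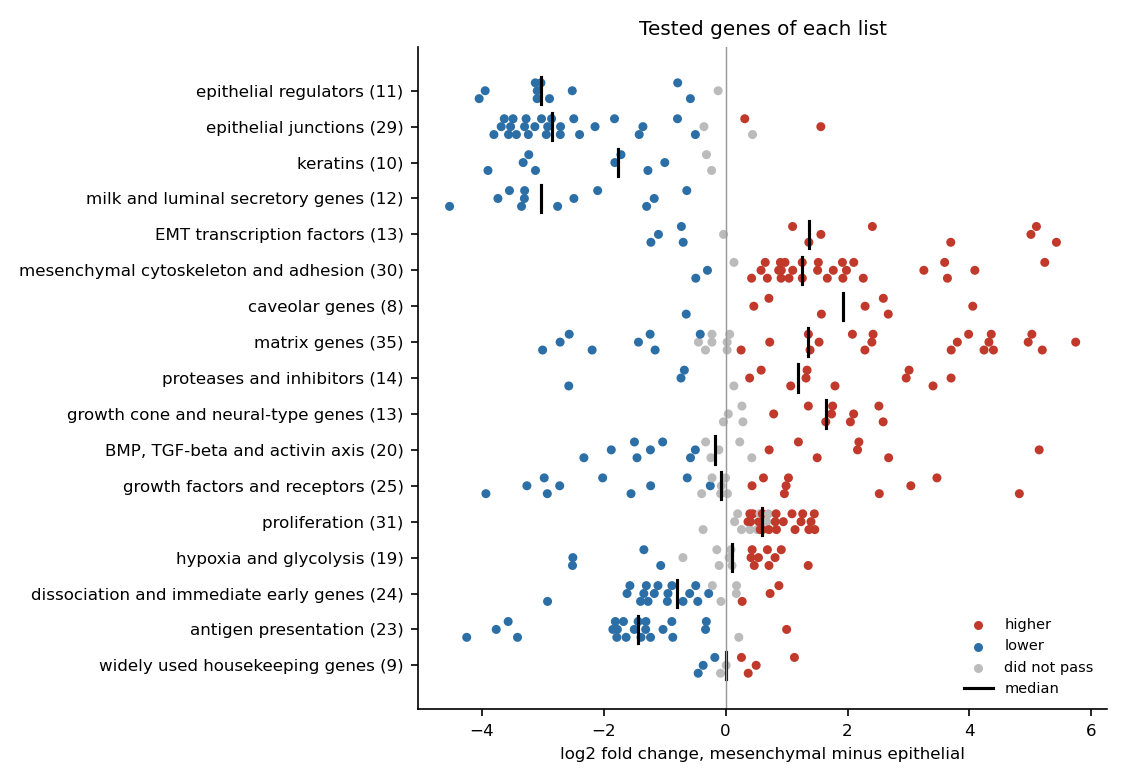
Log2 fold change of each tested gene, mesenchymal minus epithelial, in 17 gene lists; the number in parentheses counts tested genes, colours mark the genes that passed at an adjusted p of 0.05 in edgeR's test, and the black bar is the median of the list. The medians run from -3.03 for the epithelial regulators to 1.93 for the caveolar genes, beside -0.02 over all tested genes.

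Epithelial junction genes were lower nearly throughout. Of 29 tested genes of this list 25 were lower and 2 higher (median log2 fold change -2.85, against -0.02 over all tested genes). Cdh1, E-cadherin of the adherens junction (chr8:106603351-106670246), had 15.7, 14.7, 14.6, 23.6 and 20.7 CPM in the mesenchymal cells against 193, 213, 198, 194 and 205, with a log2 fold change of -3.43 ± 0.21 (edgeR, adjusted p = 3.95e-28). The lowest epithelial library stood far above the highest mesenchymal one. Among the tight junction genes, Cldn3 had 64.0 ± 31.8 CPM against 687 ± 86.7, Cldn4 had 16.2 ± 9.32 against 213 ± 76.4 and the lipolysis-stimulated receptor Lsr of tricellular junctions had 7.96 ± 4.59 against 87.5 ± 4.47. The adaptor Ap1m2, which sorts proteins to the basolateral membrane, had a log2 fold change of -3.80, and the protease inhibitors Spint1 and Spint2 had -3.68 and -3.27. The desmosomal genes desmoplakin (Dsp, log2 fold change -1.42) and Dsg2 (-2.14) were lower too. The plaque gene Pkp1 (log2 fold change 1.56) and Perp (0.31) were the 2 that rose, and Ctnnd1 and Pkp2 did not pass.

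Snail and Zeb proteins bind the E-box CACCTG, and the promoters of the junction genes were searched for it as a description. RefSeq windows (GRCm38.p6) of 250 bases before to 50 after a gene's start were in hand for 18 of the 36 listed genes, 24 windows in all, some of them overlapping. The letters CACCTG or, on the other strand, CAGGTG were in 17 of the 24 (70.8%), and in 6640 of all 32851 windows (20.2%). The genes with most matches among those that were lower are shown by their 250 upstream bases, 5′ to 3′ on the gene's strand, with each match in capitals. Ap1m2 is at chr9:21312334-21312583 and Lsr at chr7:30973470-30973719, both on the minus strand with 4 matches each. Crb3, a polarity protein of the apical membrane, is at chr17:57061951-57062200 on the plus strand with 3, and Spint2 at chr7:29281978-29282227 on the minus strand with 3.
Ap1m2: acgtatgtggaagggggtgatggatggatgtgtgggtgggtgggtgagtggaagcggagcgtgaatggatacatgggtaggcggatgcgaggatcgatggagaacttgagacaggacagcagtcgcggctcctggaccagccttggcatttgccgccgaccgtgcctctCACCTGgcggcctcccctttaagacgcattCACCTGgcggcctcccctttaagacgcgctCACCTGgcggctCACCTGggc
Lsr: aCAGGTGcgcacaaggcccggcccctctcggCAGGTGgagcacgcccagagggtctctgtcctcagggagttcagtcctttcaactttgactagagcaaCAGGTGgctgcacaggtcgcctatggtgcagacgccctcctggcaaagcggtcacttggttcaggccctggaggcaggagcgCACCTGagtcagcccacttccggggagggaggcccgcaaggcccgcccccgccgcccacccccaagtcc
Crb3: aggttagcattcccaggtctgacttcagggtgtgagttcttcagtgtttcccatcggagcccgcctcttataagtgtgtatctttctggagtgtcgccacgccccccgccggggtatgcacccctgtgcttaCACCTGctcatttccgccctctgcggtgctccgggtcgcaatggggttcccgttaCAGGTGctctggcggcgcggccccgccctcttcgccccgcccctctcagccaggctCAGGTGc
Spint2: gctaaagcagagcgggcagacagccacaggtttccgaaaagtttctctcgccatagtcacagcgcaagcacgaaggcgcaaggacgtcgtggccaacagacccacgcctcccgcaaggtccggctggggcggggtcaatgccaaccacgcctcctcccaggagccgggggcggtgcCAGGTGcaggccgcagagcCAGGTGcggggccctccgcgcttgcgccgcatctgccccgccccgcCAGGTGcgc
All 4 matches of Ap1m2 lie in the part of the window next to the start, and those of Lsr are spread over it. The matches are letters only, and nothing here measured binding.

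Regulators and products of the luminal cell followed the junction genes. Of 11 tested epithelial regulators 10 were lower and 0 higher, the exception being Gata3 (27.5 ± 4.15 CPM against 30.4 ± 2.88, adjusted p in edgeR = 0.749). Elf5, which drives alveolar differentiation, had 7.85, 0, 7.30, 3.37 and 0 CPM against 79.2, 53.9, 70.0, 57.7 and 77.3, and Ehf, of the same ETS family, had 62.8, 0, 82.8, 64.0 and 78.5 against 554, 503, 652, 577 and 616. The sides did not overlap for either gene, and replicate 2, with 17 mesenchymal cells, had 0 UMIs of both. The splicing regulator Esrp1 had a log2 fold change of -2.52 and Grhl2, a keeper of epithelial identity, one of -3.03. Another 6 regulators, among them Ovol1 and Foxa1, had 0 UMIs in the 445 mesenchymal cells, which allows up to 2.52 CPM at 3 counts. Their levels in the epithelial cells are not given here, so no loss is read from these zeros. Of 12 tested milk and luminal secretory genes all 12 were lower, with Csn1s1 at 12 ± 13.7 against 172 ± 23.7 CPM, transferrin (Trf) at 69.9 ± 33.4 against 942 ± 160.0 and the stem cell factor receptor Kit at 2 against 536 UMIs (24.0 times lower by pooled level, 95% counting interval 6.60 to 198). Osteopontin, Spp1, was the least changed of them, 1015 ± 96.2 against 1637 ± 350.5 CPM. RNA freed from lysed epithelial cells can enter any droplet, so residual milk gene UMIs in the mesenchymal cells cannot be told apart from expression.

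Most tested keratins were lower. Of 10 tested keratins 8 were lower and 0 higher (median log2 fold change -1.77). Krt8 and Krt18, the simple epithelial pair, had 1068, 1514, 1144, 1111 and 1232 and 825, 1132, 974, 922 and 905 CPM in the mesenchymal cells of replicates 1 to 5. The epithelial cells had 2607, 3209, 2980.0, 2890.0 and 2730.0 and 3352, 3631, 3340.0, 3516 and 2870.0 CPM, and the log2 fold changes were -1.27 ± 0.07 (adjusted p = 5.87e-33) and -1.82 ± 0.07 (adjusted p = 3.04e-44) in edgeR. Both keratins were measured in every mesenchymal library, the lowest at 825 CPM, beside pooled levels of 353 CPM of Krt8 and 396 CPM of Krt18 in 43 endothelial cells of the same libraries, which should lack them. Krt7, Krt19, Krt23 and Krt79 had log2 fold changes of -3.12, -3.32, -3.23 and -3.90, and the basal keratin Krt14 did not pass (76.1 ± 19.6 against 102 ± 15.02 CPM). Krt79 rested on 4 UMIs in the mesenchymal cells, and Krt4 and Krt5, under the filter, were at 0 there.

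Transcription factors of the transition did not move in 1 direction. Zeb1, a repressor of Cdh1, had 118, 147, 127, 90.9 and 95.1 CPM in the mesenchymal cells against 1.98, 6.28, 3.00, 2.67 and 4.27, a log2 fold change of 5.01 ± 0.25 (edgeR, adjusted p = 9.27e-36). Zeb2 (chr2:44983632-45117395) had 47.1, 29.4, 70.6, 47.1 and 49.6 against 0.989, 1.57, 1.39, 1.78 and 1.42 CPM, with a log2 fold change of 5.10 ± 0.34 (edgeR, adjusted p = 3.08e-26). The lowest mesenchymal library stood above the highest epithelial one for both Zeb genes. The homeobox factors Prrx1 and Prrx2, of limb and facial mesenchyme, had 80.4 ± 18.3 against 5.84 ± 1.23 and 71.9 ± 16.6 against 1.40 ± 0.945 CPM. Of the Snail family, Snai1 had 0, 0, 14.6, 20.2 and 12.4 CPM against 16.8, 17.3, 9.46, 15.8 and 14.2 and did not pass (log2 fold change -0.03 ± 0.41, edgeR, adjusted p = 0.954). Snai2 (7 UMIs in the mesenchymal cells), Snai3 (0), Twist1 (22) and Twist2 (5) were under the low-count filter and could not be tested. In all 8 of 13 tested factors were higher and 4 lower: Tcf4, Sox9, Tead1 and Runx2 rose as well, and Sox4, Foxc1, Yap1 and Runx1 were lower, with log2 fold changes of -1.23, -1.10, -0.70 and -0.72.

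Most tested cytoskeleton, adhesion and caveolar genes were higher. Of 30 tested cytoskeleton and adhesion genes 27 were higher and 2 (Anxa3 and Lgals3) lower. Galectin-1, Lgals1, had 6723, 7205, 6691, 8905 and 6366 CPM against 630.2, 573, 547, 676 and 547, a log2 fold change of 3.59 ± 0.06 (edgeR, adjusted p = 2.05e-75). The fibronectin receptor subunit Itga5 had 93.0 ± 15.6 CPM against 5.37 ± 1.23, the receptor tyrosine kinase Axl 46.8 ± 18.1 against 3.99 ± 1.29, the membrane protein Emp3 282 ± 68.0 against 7.80 ± 1.86 and the actin bundler Fscn1 149 ± 20.3 against 16.7 ± 4.13. Smooth muscle actin, Acta2, was near the detection limit on both sides (3.14 ± 7.03 and 7.47 ± 1.81 CPM) and untested, as was transgelin, Tagln. N-cadherin, Cdh2, had 16 UMIs in the mesenchymal cells, in 5 of 5 libraries, and 1 in the epithelial cells, under the filter. Among the partners of Cav1 in caveolae, 7 of 8 tested genes were higher and Pacsin3 was lower. Cavin2 had 784 ± 97.0 CPM against 47.5 ± 7.53 (log2 fold change 4.05 ± 0.10, edgeR, adjusted p = 7.04e-63), and Cavin1 and Cavin3 rose by 2.67 and 2.59.

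The matrix list was mixed, with 20 of 35 tested genes higher and 8 lower. Fibronectin, Fn1, had 605, 618, 696, 532 and 579 CPM in the mesenchymal cells and 13.8, 16.7, 22.2, 15.2 and 10.9 in the epithelial cells (log2 fold change 5.19 ± 0.12, edgeR, adjusted p = 6.5e-64), so that all mesenchymal libraries lay far above all epithelial ones. Type VI collagen (Col6a1, 193 ± 50.5 against 5.94 ± 1.26 CPM), nidogen (Nid1, 72.1 ± 27.7 against 3.59 ± 1.01), the cross-linking enzymes Loxl1 and Loxl2 (128 ± 24.4 against 8.06 ± 3.97) and fibulin-2 (Fbln2, 405 ± 96.6 against 21.4 ± 6.46) rose. Col1a2 and Col3a1, which fibroblasts make in quantity, were among the 8, with log2 fold changes of -1.16 and -1.43 on 26 and 17 UMIs in the mesenchymal cells; with the lower thresholds of 3, 4 and 3 UMIs the Col3a1 value was -0.04 and did not pass. The cap on Dcn, Lum and Dpt had removed cells from the mesenchymal side only, while single epithelial cells reached 77 UMIs of Dcn and 92 of Col1a2. With that cap and the exclusion of Pecam1, Cdh5 and Ptprc on both sides, an alternative chosen after seeing the data, Col1a2 had -0.28 ± 0.32 (edgeR, adjusted p = 0.497) and Col3a1 -0.11 ± 0.38 (adjusted p = 0.833), and the list gave 19 higher and 6 lower of 34, so no difference is read for these collagens. Postn (-2.19) and the collagen chaperone Serpinh1 (-2.71) were lower, also under the exclusions on both sides (-2.08 and -2.68). Of 14 tested proteases and inhibitors 10 were higher and 3 lower. Of the plasminogen activator system, tissue activator Plat (152 ± 38.8 against 10.4 ± 2.31 CPM), urokinase Plau (55.3 ± 19.9 against 7.93 ± 2.64) and its receptor Plaur were higher, while Serpine2 was lower (log2 fold change -2.57). Mmp2 had 0 UMIs in the mesenchymal cells, and Mmp14, the membrane-bound protease, rose by 1.32.

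Genes of growth cones and of neural development, the group of Gap43 and Dpysl3, gave 9 higher and 0 lower of 13 tested (median 1.64). The intermediate filament nestin, Nes, had 381 ± 41.5 CPM against 85.1 ± 9.68 (log2 fold change 2.10 ± 0.11, edgeR, adjusted p = 1.66e-34), the adhesion molecule Ncam1 86.6 ± 33.6 against 14.2 ± 3.04, the ephrin ligand Efnb1 54.8 ± 7.42 against 9.48 ± 1.57 and Dpysl2, a relative of Dpysl3, 32.5 ± 12.3 against 6.39 ± 1.57. Stmn1, Tubb2b, Marcksl1 and Epha2 did not pass.

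Bmp2 belongs to the BMP, TGF-beta and activin axis, in which no common direction was seen: 7 of 20 tested genes were higher and 8 lower. Among the ligands, Inhba, the activin A subunit (chr13:16011851-16031621), had 1045, 1662, 1232, 1249 and 1224 CPM against 25.7, 41.3, 41.1, 33.3 and 32.7, a log2 fold change of 5.14 ± 0.09 (edgeR, adjusted p = 3.74e-77), whereas the activin B subunit Inhbb had 16.2 ± 19.1 against 73.1 ± 9.66 CPM, with a log2 fold change of -2.32. Tgfb2 and Tgfb3 were lower as well (-0.50 and -1.88). Among the activin antagonists, follistatin (Fst) and Fstl3 rose by 2.16 and 2.19 on the log2 scale, and the latent TGF-beta binding proteins Ltbp1 and Ltbp2 by 2.67 and 1.19. The receptors Bmpr1a, Bmpr2, Acvr1 and Tgfbr1 did not pass. The BMP targets Id1 and Id2 were lower (-0.58 and -1.03), Id3 did not pass, and the inhibitory Smad7 rose by 0.71. Of 25 tested growth factors and receptors 9 were higher and 10 lower. The lymphangiogenic factor Vegfc (45.1 ± 15.6 against 1.30 ± 0.367 CPM), Igfbp4 (235 ± 44.8 against 19.9 ± 3.33), Cxcl12 and Ccl2 were higher, and Igfbp5 (129 ± 60.9 against 1397 ± 190.1), Ccl20, Csf3 and the receptors Lifr and Erbb3 lower.

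Most tested proliferation genes were higher in the mesenchymal cells. Of 31 tested genes 22 were higher and 0 lower (median 0.60); DESeq2 called 13 of 34 higher and 0 lower, and edgeR with the RLE scaling 20 higher and 1 lower. Cenpe, a kinetochore motor, had 244, 103, 151, 155 and 194 CPM against 65.3, 44.5, 60.7, 67.8 and 76.9 (log2 fold change 1.37 ± 0.14, edgeR, adjusted p = 1.44e-14), and Ube2c, which feeds the anaphase-promoting complex, 369, 103, 219, 229 and 376 against 119.7, 34.0, 88.9, 104 and 124 (1.40 ± 0.12, edgeR, adjusted p = 6.49e-20). The sides of Ube2c overlapped over all libraries but not within any library, since replicate 2 was lowest on both sides. Rrm2, a ribonucleotide reductase subunit, was higher in 4 of 5 libraries and at 0 UMIs in the 17 cells of replicate 2.

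To compare cells at 1 depth, each cell was thinned to 1000 UMIs and called cycling at 2 or more UMIs over the 34 proliferation genes. The cycling share was 68.3%, 35.3%, 49.6%, 48.3% and 65.5% in the mesenchymal cells of replicates 1 to 5 and 41.7%, 26.5%, 34.6%, 37.0% and 42.0% in the epithelial cells. The mesenchymal share was higher in each library, by 17.0 points ± 7.68 (SD of the paired differences, n = 5; exact sign-flip permutation test, two-sided, p = 0.0625, the smallest this design can give). With no thinning the shares averaged 74.7% and 59.9%. In the 43 endothelial cells of these libraries (2 or more UMIs over Pecam1 and Cdh5 and at most 1 of Epcam) 37.2% met the same threshold when pooled (exact 95% interval 23% to 53.3%, counting error only). By library the endothelial share was 33.3%, 0%, 38.5%, 46.7% and 50% of 3, 6, 13, 15 and 6 cells, too few for a comparison by library. With a share of this size in another cell type, the shares above are not read as cycling. With 1 UMI as the threshold the difference was 8.52 points, positive in 4 of 5 libraries (exact p = 0.25).

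**Figure D3:**
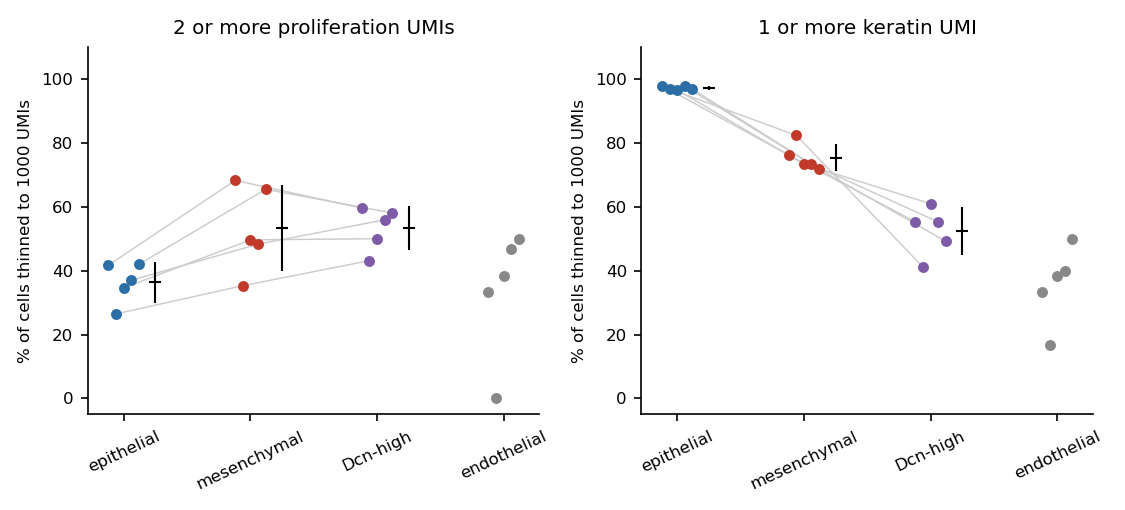
Percent of cells with 2 or more UMIs of proliferation genes (left) or 1 or more UMI of Krt7, Krt8, Krt14, Krt18 and Krt19 (right) after thinning each cell to 1000 UMIs, by MT1 library; grey lines join the sides of 1 library and bars give the mean and SD over the 5 libraries. The mesenchymal cycling share lies above the epithelial share in 5 of 5 libraries, and the mesenchymal keratin share lies between those of the epithelial and the Dcn-high cells.

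Most tested antigen presentation and immediate early genes were lower. Of 23 tested antigen presentation and interferon genes 21 were lower and 1 (Psmb10) higher. The class II genes were lowest: H2-Ab1 had 3 UMIs in the mesenchymal cells against 654 (19.5 times lower by pooled level, 95% counting interval 6.64 to 94.8), and the invariant chain Cd74 0, 0, 14.6, 3.37 and 4.13 CPM against 68.3, 149.6, 65.6, 82.0 and 65.0 (log2 fold change -3.41 ± 0.35, edgeR, adjusted p = 4.94e-15). The class I gene H2-K1 had 1957 ± 489 CPM against 3564 ± 916, and B2m, its light chain, was lower by a small step (log2 fold change -0.33). The immune marker list was at 0 to 8.27 CPM in sum in the mesenchymal cells and 1.57 to 8.62 in the epithelial cells. Of 24 tested immediate early and dissociation genes 17 were lower and 3 higher; Fos had 424, 279, 589, 525 and 661 CPM against 1419, 1729, 1555, 1664 and 1591 (log2 fold change -1.57 ± 0.08, edgeR, adjusted p = 4.67e-33) and Nr4a1 16.4 ± 11.9 against 147 ± 40.1. These genes also respond to tissue digestion, and what part digestion has in their difference was not tested. Of 19 tested hypoxia and glycolysis genes 9 were higher (Pgk1 by 1.35, Eno1 and Pkm by 0.69 and 0.71) and 4 lower, with Pfkfb3 and Egln3 at -2.51 and -2.50. Among 9 tested housekeeping genes 4 were higher and 3 lower, and the purine salvage gene Hprt was among the higher ones (153 ± 49.3 against 71.2 ± 18.6 CPM), as was Ywhaz (724 ± 48.9 against 512 ± 37.3 CPM).

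Cav1 and Capza2 lie close together on chromosome 6, so their neighbours were described for 3 Mb on either side of the start of Cav1. Of 74 annotated genes 34 were in the table, and 5 besides the gate genes passed the low-count filter. Cav2 (chr6:17281185-17289115), the partner of Cav1 in caveolae, was already high in the epithelial cells, 1010.0, 718, 506, 651 and 738 CPM, and higher in the mesenchymal cells, 2670.0, 2323, 1407, 1909 and 2485 (log2 fold change 1.57 ± 0.07, edgeR, adjusted p = 2.05e-41). Met (chr6:17463800-17573980), the receptor of hepatocyte growth factor, lies between Cav1 and Capza2 and stood at 2678, 2558, 2849, 2683 and 2923 CPM in the mesenchymal cells and 2860.0, 2691, 2960.0, 2667 and 2591 in the epithelial cells. The sides of Met overlapped fully (log2 fold change -0.00 ± 0.06 in edgeR, adjusted p = 0.989). St7 did not pass (817 ± 94.1 against 718 ± 66.4 CPM, edgeR, adjusted p = 0.0673), nor did Tes (217 ± 46.8 against 179.8 ± 19.0). Lsm8, farthest from Cav1 of the 5, was called (83.0 ± 37.1 against 58.9 ± 15.99 CPM, adjusted p = 0.0121) in edgeR, but not in DESeq2 (adjusted p = 0.212), nor without the replicate block (adjusted p = 0.0843).

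Met, St7 and Cav2 stood higher in both kinds of MT1 cells than in the gland of the same mouse. Capza2 did so in the epithelial cells, and its level in the mesenchymal cells was set by the rule and shows nothing here. In the epithelial cells of that gland (MG1), pooled Capza2 was 360 CPM, Met 142 CPM, St7 14.8 CPM and Cav2 48.8 CPM; in the MT1 epithelial cells the means were 12900.0, 2754, 718 and 724 CPM. Tes and Lsm8, at the edges, were at 267 and 42.0 CPM in MG1. In the 43 MT1 endothelial cells Capza2 was at 1744 CPM and Met at 246 CPM; what part of this is free RNA of tumor cells was not tested. In MT2 the whole tumor had 459 CPM of Capza2 and 139 CPM of Met. These are levels of RNA, and copy number was not measured.

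**Figure D4:**
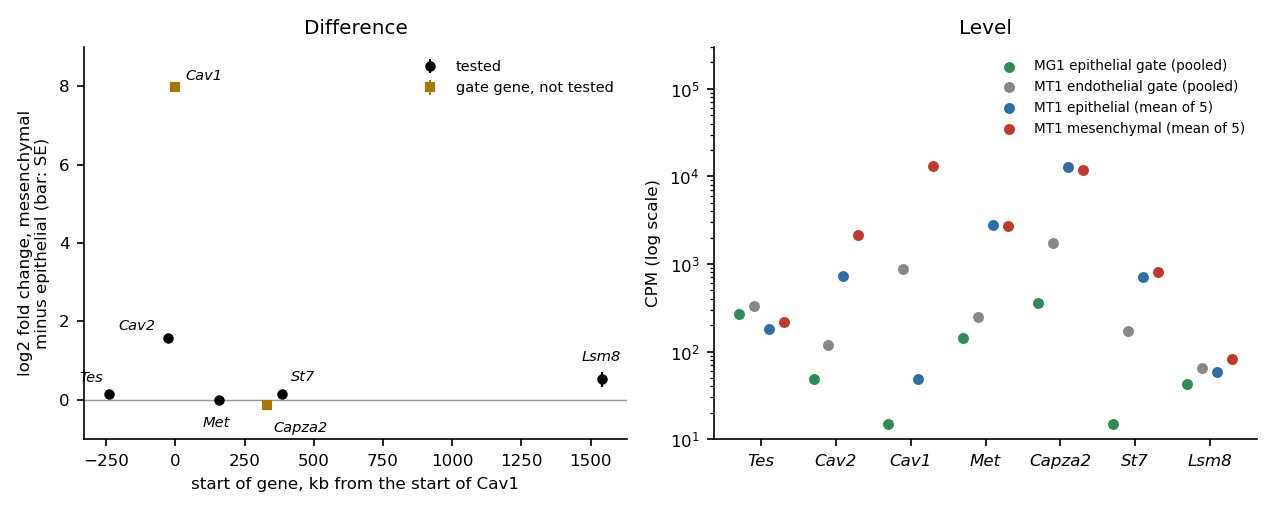
Left, log2 fold change (bar: SE) of the tested genes within 3 Mb of Cav1 by distance of their start from that of Cav1; right, their levels (CPM, log axis) in 4 sets of cells. Cav1 and Capza2 were part of the rule, so their differences are a description with no test. Cav2 is higher in the mesenchymal than in the epithelial MT1 cells while Met is level. Met, Capza2, St7 and Cav2 are far lower in the MG1 epithelial cells than in the MT1 epithelial cells.

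The last comparison asked what separates the mesenchymal cells from the cells that the cap on Dcn, Lum and Dpt leaves out. It set them against 520 MT1 cells with 5 or more UMIs over these 3 genes, which fibroblasts express, and at most 1 of Epcam, called Dcn-high here. Of these cells 408 also met the Vim, Cav1 and Capza2 conditions, and 112 did not. For the 408 the label fibroblast rests on Dcn: their pooled level was 2693 CPM of Dcn but 5.07 CPM of Lum, 2.90 of Dpt and 46.4 of Col1a2, and that of Met was 2497 CPM, beside 2683 CPM in the mesenchymal cells. Capza2 was one of their conditions and shows nothing here. The 25 Dcn-high cells with 0 or 1 UMI of Capza2 had 310.04 CPM of Capza2, 1531 of Lum and 17963 of Col1a2.

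Against all 520, 282 of 4234 tested genes passed (6.66%), 145 higher (3.42%) and 137 lower (3.24%) in the mesenchymal cells. An unadjusted p under 0.05 was given to 839, and only 124 passed without the replicate block. DESeq2 made 125 calls, 79 of them among the 282, and 159 genes passed in edgeR without replicate 4. The leading higher genes were stratifin (Sfn), desmoplakin (Dsp), maspin (Serpinb5), Anxa8, the mRNA export subunit Thoc7, Krt14, Wfdc2 and Cldn3. Of 8 tested junction genes 3 were higher (Cldn3, Dsp and Dsg2) and 1, Cd24a, lower, and of 4 tested keratins 3 were higher (Krt8, Krt14 and Krt18) and 0 lower. In DESeq2 Cldn3 (adjusted p = 0.176), Dsg2 (0.974) and Cd24a (0.454) did not pass, so that only Dsp of the 4 junction calls passed there, as did the 3 keratins. Dsp had 75.9, 132, 155, 108 and 119.7 CPM in the mesenchymal cells and 46.3, 15.2, 23.1, 23.2 and 44.0 in the Dcn-high cells (log2 fold change 2.10 ± 0.26, edgeR, adjusted p = 3.1e-08). Krt8 had 1147, 1692, 1216, 1148 and 1321 against 629.8, 586, 623, 657 and 663 CPM (1.00 ± 0.09, edgeR, adjusted p = 2.29e-12); the sides did not overlap for either gene, as for 3.66% of all tested genes. Epcam was capped at 1 UMI on the Dcn-high side only, and pooled Epcam was 207 CPM against 63.7 CPM. With Epcam at 1 or less on both sides, chosen after seeing the data, 259 genes passed, 226 of them among the 282; Dsp had 1.82 and Krt8 0.81, Dsg2 did not pass (edgeR, adjusted p = 0.155), Cldn3 fell under the low-count filter, and the lists gave 1 higher (Dsp) and 1 lower (Cd24a) of 7 junction genes and 3 higher of 3 keratins. The leading lower genes were Mmp2, the collagen genes Col3a1, Col1a2, Col5a2 and Col1a1, the microfibril gene Mfap5, Serpinf1 and Postn. Col1a2 had 16.9, 16.4, 10.3, 52.2 and 17.7 against 1074, 3222, 634, 648 and 1643 CPM, and Mmp2, at 0 UMIs in the mesenchymal cells, was at least 30.9-fold lower (3 counts over the group).

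Those 8 lower genes were high in the 112 cells and low in the 408. Col1a2 was at 7319 CPM in them and 46.4 CPM in the 408, Col3a1 at 8051 and 26.8 CPM, and Postn at 3829 and 15.2 CPM; with the 3 conditions set on both sides none of the 8 passed the low-count filter. Under these conditions, an alternative chosen after seeing the data, 265 genes passed, and 198 of them were also among the 282. The calls for Sfn, Dsp, Serpinb5, Anxa8, Thoc7, Krt14 and Wfdc2 remained, with log2 fold changes of 3.25, 2.17, 1.83, 2.21, 1.73, 1.70 and 1.46, and matrix genes went from 0 higher and 16 lower to 5 higher and 3 lower; Cldn3 was under the filter. With the Epcam cap added to these conditions 238 genes passed, 176 of them among the 282, with Dsp at 1.91 and Krt8 at 0.74; Sfn, Krt14 and Cldn3 were then under the low-count filter and untested. Gap43 and Bmp2 stood lower in the mesenchymal cells than in the Dcn-high cells, 33.9 ± 13.2 against 159 ± 78.1 and 76.8 ± 21.8 against 231 ± 109.7 CPM, as a description. Pooled S100a4 and Dpysl3 were lower there too, 188 against 253 and 131 against 277 CPM. These working markers are thus not particular to the mesenchymal cells. Zeb1 (124 ± 28.0 against 142 ± 16.4 CPM, adjusted p = 0.361), Fn1 (adjusted p = 0.443) and Inhba (adjusted p = 0.679) did not pass in edgeR. None of 27 tested proliferation genes was called.

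**Figure D5:**
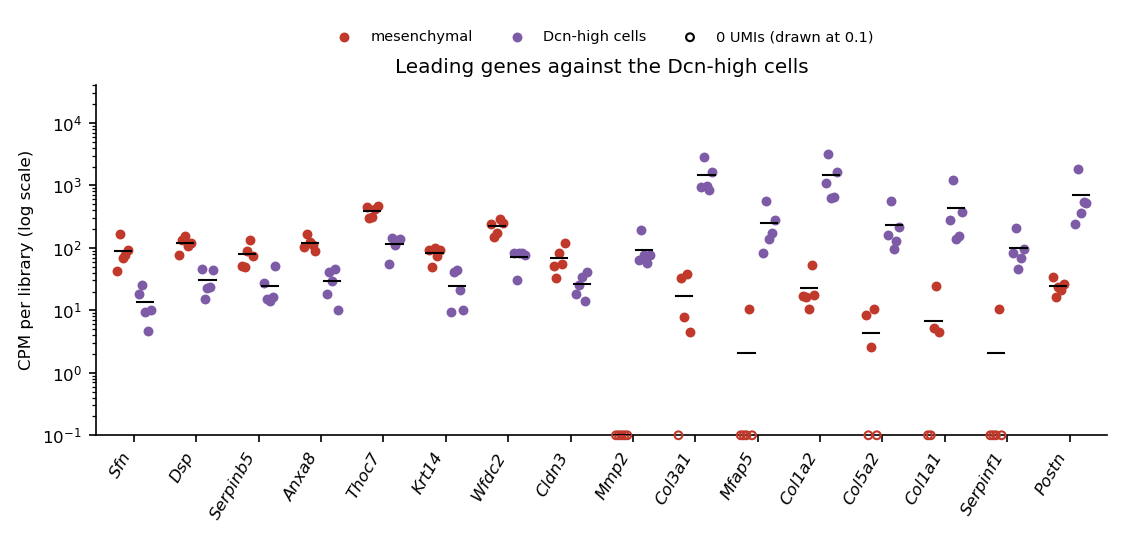
Levels in CPM (log axis) of the 8 leading genes in each direction in the mesenchymal cells (red) and the Dcn-high cells (purple) of the 5 MT1 libraries; the bar is the mean and open points are libraries with 0 UMIs. Mmp2 is at 0 UMIs in all 5 mesenchymal sums, and Thoc7 is separated between the sides in every library.

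A larger share of the mesenchymal than of the Dcn-high cells held keratin RNA, in each library. At 1000 UMIs a cell, 76.2%, 82.4%, 73.4%, 73.3% and 71.8% of the mesenchymal cells of replicates 1 to 5 had a UMI of Krt7, Krt8, Krt14, Krt18 or Krt19, against 55.3%, 41.2%, 61.0%, 55.3% and 49.2% of the Dcn-high cells. The difference was 23 points ± 10.9 (SD, n = 5), positive in 5 of 5 libraries (exact sign-flip permutation test, two-sided, p = 0.0625, the smallest possible), and with Epcam at 1 or less on both sides it was 21.0 points ± 9.44, again in 5 of 5. The 43 endothelial cells, which should lack keratins, gave 37.2% (23% to 53.3%) as the background; whether these UMIs are free RNA, doublets or cells wrongly taken by the gate was not tested. Their depth was a median of 1352 to 3383 UMIs a cell by library before thinning. The epithelial cells gave 97.1%. Without thinning the shares averaged 91.7% and 78.9% in the mesenchymal and Dcn-high cells.

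Markers of other cell types were summed per library on both sides as a description. The gate had removed cells with endothelial, immune and fibroblast UMIs from the mesenchymal side only, and the epithelial side held 45 UMIs of Pecam1 and 28 of Cdh5. Of 14 endothelial markers 6 were at 0 UMIs (Cldn5, Kdr, Tek, Tie1, Eng and Ramp2), with a summed level of 28.9 to 53.9 CPM against 58.1 to 124 in the epithelial cells. With the same exclusions on the epithelial side, and with no TMM scaling, the endothelial sums were 27.8 to 50.9 against 50.1 to 72.6 CPM, and the ranges overlapped. Of 12 pericyte and smooth muscle markers 4 were at 0, and the sum was 14.7 to 31.4 against 33.6 to 52.4 CPM. Of 16 fibroblast markers outside the gate 5 were at 0 (Col14a1, Pi16, Clec3b, Cygb and Tnxb) and the sum was 432 to 613 CPM against 285 to 437, most of it Gsn (396 ± 77.2 against 92.2 ± 6.09 CPM), an actin-severing protein that many cells make; with the same exclusions and no TMM scaling it was 435 to 579 against 204 to 335 CPM. Pdgfra and Pdgfrb, which define fibroblasts and pericytes, were at 3.48 ± 4.87 and 3.77 ± 6.37 CPM. The myoepithelial sum was 112 to 135 against 179 to 240 CPM, with Krt5 and Actg2 at 0, and the hormone-sensing sum 14.7 to 54.98 against 123 to 175 CPM, with Pgr at 0. Of the Schwann and muscle list Sox10 and Mbp were lower and Pmp22 higher, and its sum was 49.6 to 132 against 138 to 155 CPM.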

How the data were processed

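Drop-seq counts of 21743 genes in 21157 cells of 12 libraries were used. Per the labels and the methods, the authors aligned reads with STAR to GRCm38.p6 and counted UMIs per gene and cell with the Drop-seq tools; the deposited counts are whole UMI counts with no normalization. Whether counting used strand or divided reads between paralogs is not given in the sources used here. Every column was matched to a library by its name. No doublet caller was run; leaving out the highest 5% of UMI totals per library was an alternative.

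UMIs were summed per library and side and tested in edgeR 4.0.16 (R 4.3.3), by the quasi-likelihood test with TMM scaling, the low-count filter and the library as a block, since both sides of a pair come from the same library. Benjamini-Hochberg adjustment ran over all tested genes except the 10 gate genes. DESeq2 1.42.0 was an alternative. Shares of cells were thinned to 1000 UMIs and tested by exact sign flips in scipy 1.17.1. On simulated counts the edgeR script was checked for recovery of known changes. MT1 libraries held 1683944 to 6734224 UMIs; intervals and floors (3 counts) cover counting error only, and PCR copies are removed by the UMIs.

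Members and gene lists were chosen with earlier results of these data known. Named were the gate genes and markers, the 12 largest differences in each direction at 50 CPM or more with 1 sign in 5 libraries, up to 4 genes of each list at 20 CPM or more, the 8 largest in each direction against the Dcn-high cells, and the tested neighbours of Cav1; predicted, ribosomal, mitochondrial and histone genes were left out of the leads. Other genes were named for their role after their values were seen. Gene positions are from GENCODE M21 (21332 of 21743 symbols matched) and promoters from RefSeq. Some genes are not reported here.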

Additional observations from a re-analysis of the deposited data

Results flagged for a closer look

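Among 86 values checked over the 5 MT1 libraries, 3 had a library far from the others, and chance alone gives about 1 in 20. The log2 ratio of Cenpe, mesenchymal over epithelial, was 1.90 in replicate 1 and 1.19 to 1.34 in the others. The log2 ratio of Inhba was 4.91 in replicate 3 and 5.22 to 5.34 in the others. The mesenchymal cells of replicate 2 had a median of 4047 UMIs, against 1795 to 2408 in the others, and were only 17 cells.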

How the results depend on the processing

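Against the epithelial cells, the main fit called 1814 genes higher and 1781 lower. Leaving out the cap on Dcn, Lum and Dpt, an alternative added after seeing the data, gave 2627 higher and 2691 lower. With no low-count filter 1627 were higher and 3004 lower. Without the replicate block 3212 genes passed, and leaving out each library gave 2945 to 3761. Against the Dcn-high cells, the 282 calls were less stable. DESeq2 made 125 calls, 39 higher and 86 lower, only 79 of them among the 282, and the fit with no replicate block made 124, 55 higher and 69 lower, all among the 282. Without the low-count filter 256 genes were lower. Leaving out each library gave 159 to 309 calls, 65 to 157 higher and 84 to 152 lower, the fewest without replicate 4 in all and in the higher calls and without replicate 3 in the lower; the cause was not tested. The mean share of MT1 cells in the gate was 14.2% without the cap. The median log2 fold change over the genes tested against the epithelial cells was -0.02, and for the same genes -0.14 in DESeq2 and -0.21 without the low-count filter. Of the values of the genes that the naming rule chose, under the alternatives, 1827 against the epithelial cells kept direction and call, 8 lost the call, 1 gained it and 20 untested values moved by more than 1 SD; against the Dcn-high cells 180 kept them and 1, Cldn3 in DESeq2, lost it; of the list genes named beside them Dsg2 and Cd24a lost it in DESeq2, and Dsg2 with Epcam at 1 or less on both sides. The cycling difference ran from 14.7 to 19.1 points and the keratin difference from 18.5 to 25.7 points when each library was left out. With 5 libraries of 1 tumor, no result speaks of other tumors.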
